A study of Mus musculus with 6 samples.

Results

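The genes of the cytosolic ribosomal proteins are described here in activated mouse CD4+ T cells. Members were the genes of the count table whose symbol is Rpl or Rps followed by a protein number, with or without a paralog letter, or by P0, P1 or P2. This gave 84 of 23420 genes, 52 of the large (60S) subunit and 32 of the small (40S) subunit. Of these, 80 had enough counts to be tested, 49 of the 60S and 31 of the 40S subunit, among 10607 genes tested in all. Rpsa, which encodes another 40S protein, is not matched by this pattern of symbols and is given separately.

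Splenic CD4+CD62L+ T cells of Balb/c mice aged 12 weeks were stimulated on plates with antibodies to CD3 and CD28, given 10 ul of concentrated lentivirus per well 24 h later, fed with medium and IL-2 another 24 h later, and harvested 48 h after that. Of the 6 libraries of polyadenylated RNA, 2 came from cells with Dyrk1a shRNA, 2 from cells with scramble shRNA fed with 3.7 uM harmine, and 2 from cells with scramble shRNA alone, called control below. DYRK1A is a dual-specificity kinase and harmine, a beta-carboline, inhibits it, so the comparisons address an shRNA directed at the kinase and its chemical inhibition. The labels do not say whether libraries of 1 group came from separate mice or cultures, so p-values measure the spread between these libraries, which may be technical. The study's methods list several hairpins and do not say which library received which.

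A ribosome holds a single copy of nearly every ribosomal protein, and the transcripts of these proteins are among the most abundant of a growing cell. Most begin with a cytosine followed by a run of pyrimidines (a 5′ terminal oligopyrimidine start), through which their translation follows mTOR activity. Activated T cells raise ribosome production as they grow and divide. Mammalian genomes also carry many processed copies of these genes, so that a short read from such a transcript can often be placed at more than 1 locus.

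The sequence around the annotated start was available for 63 of the 84 members, from RefSeq promoters on GRCm38.p6. A cytosine followed by at least 4 pyrimidines stood exactly at the start in 13 of the 63 (20.6%), against 3.01% of all 27025 annotated genes, and began within 10 bases of the start in 39 (61.9%), against 34.4%. The letters CCGGAA on either strand, the core of a motif bound by ETS factors, lay between 250 bases before and 50 bases after the start in 34 members (54%), against 16.7% of all genes. The letters ATGGCG, searched on the sense strand of the same window, were found in 8 members (12.7%), against 5.83%. Over the 16375 genes of the count table with such a sequence, these 4 shares were 2.79%, 35.1%, 21% and 7.24%, in the order given. These matches describe letters and not binding. Windows of 3 members whose values are given below show such starts, with 10 bases before the start and 20 from it and the pyrimidine run in capitals. Rps6 (chr4:86857348-86857377, minus strand) encodes the 40S substrate of the S6 kinases, Rps18 (chr17:33955646-33955675, minus strand) a 40S protein, and Rplp2 (chr7:141447641-141447670, plus strand) a protein of the 60S stalk.
Rps6: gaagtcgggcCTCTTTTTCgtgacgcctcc
Rps18: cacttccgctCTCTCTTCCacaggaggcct
Rplp2: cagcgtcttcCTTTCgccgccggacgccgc

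Libraries held 1096345 to 3747648 counts over 12492 to 13858 detected genes, and the 2 control libraries were the shallowest. The targeted gene did not separate either treated group from control. Dyrk1a was measured at 60.2 and 61.9 CPM with Dyrk1a shRNA, 74.8 and 77.6 with harmine, and 58.4 and 82.7 in control 1 and 2, where CPM are counts per 1e+06 after scaling by the trimmed mean of M values, as everywhere below unless stated. Both libraries with Dyrk1a shRNA thus lay between the controls (log2 fold change against control -0.19 ± 0.21 SE, edgeR adjusted p = 0.835). Both lay below both harmine libraries, as in 20.8% of all genes, and the difference did not pass the test (log2 fold change -0.32 ± 0.20 SE, edgeR adjusted p = 0.88). All 8 CD4 T cell markers listed were tested, and their sum was 2915 and 3030 unscaled CPM with Dyrk1a shRNA, 2987 and 3217 with harmine, and 2918 and 3292 in control 1 and 2. B cell markers (9 of 9 in the table) summed to 89.2 and 105 unscaled CPM with Dyrk1a shRNA, 73.5 and 70.7 with harmine, and 109.6 and 103 in control 1 and 2, with the defining Pax5 at 0 counts in 5 of 6 libraries. Myeloid markers (8 of 9 in the table) summed to 175 and 155 unscaled CPM with Dyrk1a shRNA, 151 and 139 with harmine, and 267 and 159 in control 1 and 2, with the defining Csf1r at 0 to 1 counts. The myeloid sum was thus highest in control 1, and all 4 tested myeloid markers were higher in control 1 than in control 2. Most of this sum was 1 gene, Cst3, at 215 and 136 unscaled CPM in control 1 and 2. Of the B cell sum, Cd74 alone was at 54.5 and 44.7 in control 1 and 2. These sums therefore follow few genes. The part of other cell types in the results below was not tested, and in bulk RNA fewer cells of a type cannot be told apart from less RNA per cell.

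Ribosomal protein genes took 14.3% and 14.2% of all counts with Dyrk1a shRNA, 15.6% and 15.4% with harmine, and 21.1% and 11.8% in control 1 and control 2. The exact (Clopper-Pearson) 95% binomial intervals of the control shares were 21.1 to 21.2 and 11.8 to 11.9, which cover counting error only. The libraries of each treated group lay close together, and all 4 lay between the controls. The mean share was 14.2 ± 0.0373% with Dyrk1a shRNA and 15.5 ± 0.129% with harmine (SD, n = 2 each), a difference of -1.25 percentage points (exact permutation test, two-sided p = 0.333, the smallest that 2 against 2 libraries can give). The control mean was 16.5 ± 6.59% (SD, n = 2), and the exact permutation p was 1 both for Dyrk1a shRNA and for harmine against control.

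**Figure D1:**
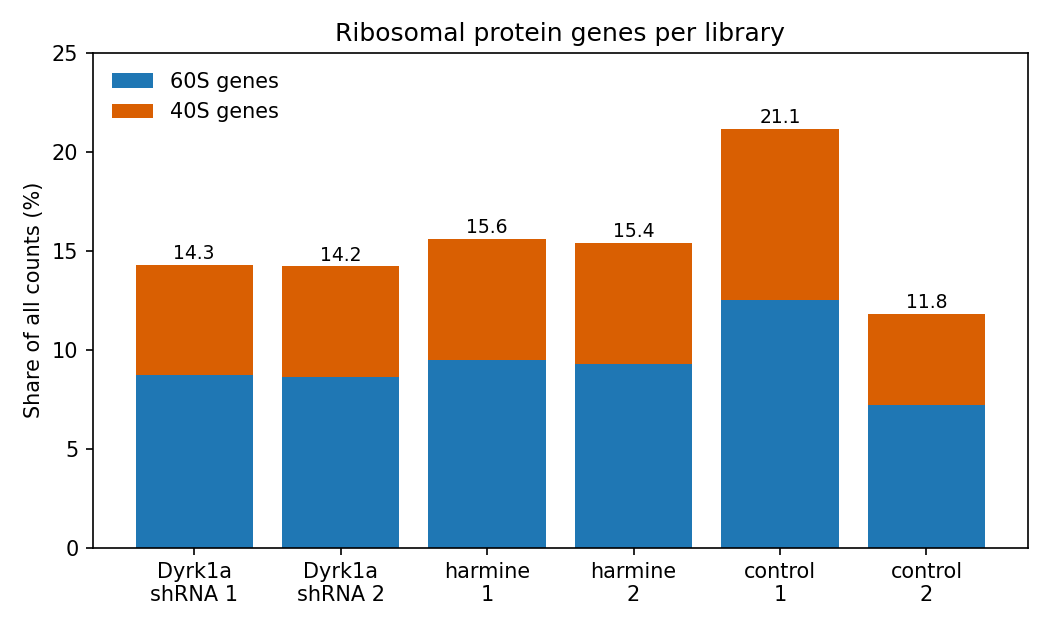
Share of all counts (%) in ribosomal protein genes, with 60S genes in blue and 40S genes in orange, in each library. The Dyrk1a shRNA libraries (14.3 and 14.2) and the harmine libraries (15.6 and 15.4) lie between control 1 (21.1) and control 2 (11.8).

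The subunits kept a similar proportion. The ratio of 60S to 40S counts was 1.59 and 1.55 with Dyrk1a shRNA, 1.56 and 1.51 with harmine, and 1.45 and 1.57 in control 1 and 2. Its mean was 0.0561 higher with Dyrk1a shRNA than in control and 0.0262 higher with harmine than in control (exact permutation p = 0.667 and 1). It was 0.0298 higher with Dyrk1a shRNA than with harmine (exact permutation p = 0.667). Relative to the mean of the 6 libraries, the median 60S gene stood at -0.10 and -0.13 on the log2 scale with Dyrk1a shRNA, 0.05 and -0.0039 with harmine, and 0.73 and -0.49 in control 1 and 2. The median 40S gene stood at -0.14 and -0.14 with Dyrk1a shRNA, 0.04 and 0.0018 with harmine, and 0.76 and -0.49 in control 1 and 2. The medians of both subunits thus lay within 0.04 of each other in every library.

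The gap between the control libraries was wide for almost every member. The log2 ratio of control 1 to control 2 had a median of 1.25 over the 80 members, a 2.38-fold difference, against -0.0044 over all genes tested. It was above 0 for 78 of 80 members (97.5%), against 49.8% of all genes, and above 2-fold for 59 members (73.8%), against 7.34%. Between replicates of the treated groups the median log2 ratio of the members was 0.03 with Dyrk1a shRNA and 0.04 with harmine, where replicate 1 was the higher in 53 and 50 of 80 members, against 50.6% and 49.8% of all genes. The median control gap was 1.19 for 60S genes and 1.27 for 40S genes, a difference of -0.07 beside an SD of 0.39 and 0.40 among the genes of each subunit (without Rpl26). In 72 of 80 members (90%), 42 of the 60S and 30 of the 40S subunit, all 4 treated libraries lay between the controls, against 15.7% of all genes. All 4 lay below both controls in 1 member (1.25%, against 7.85% of all genes) and above both in 0 (against 8.47%), and in 7 members (8.75%, against 67.9%), all of the 60S subunit, they were mixed.

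**Figure D2:**
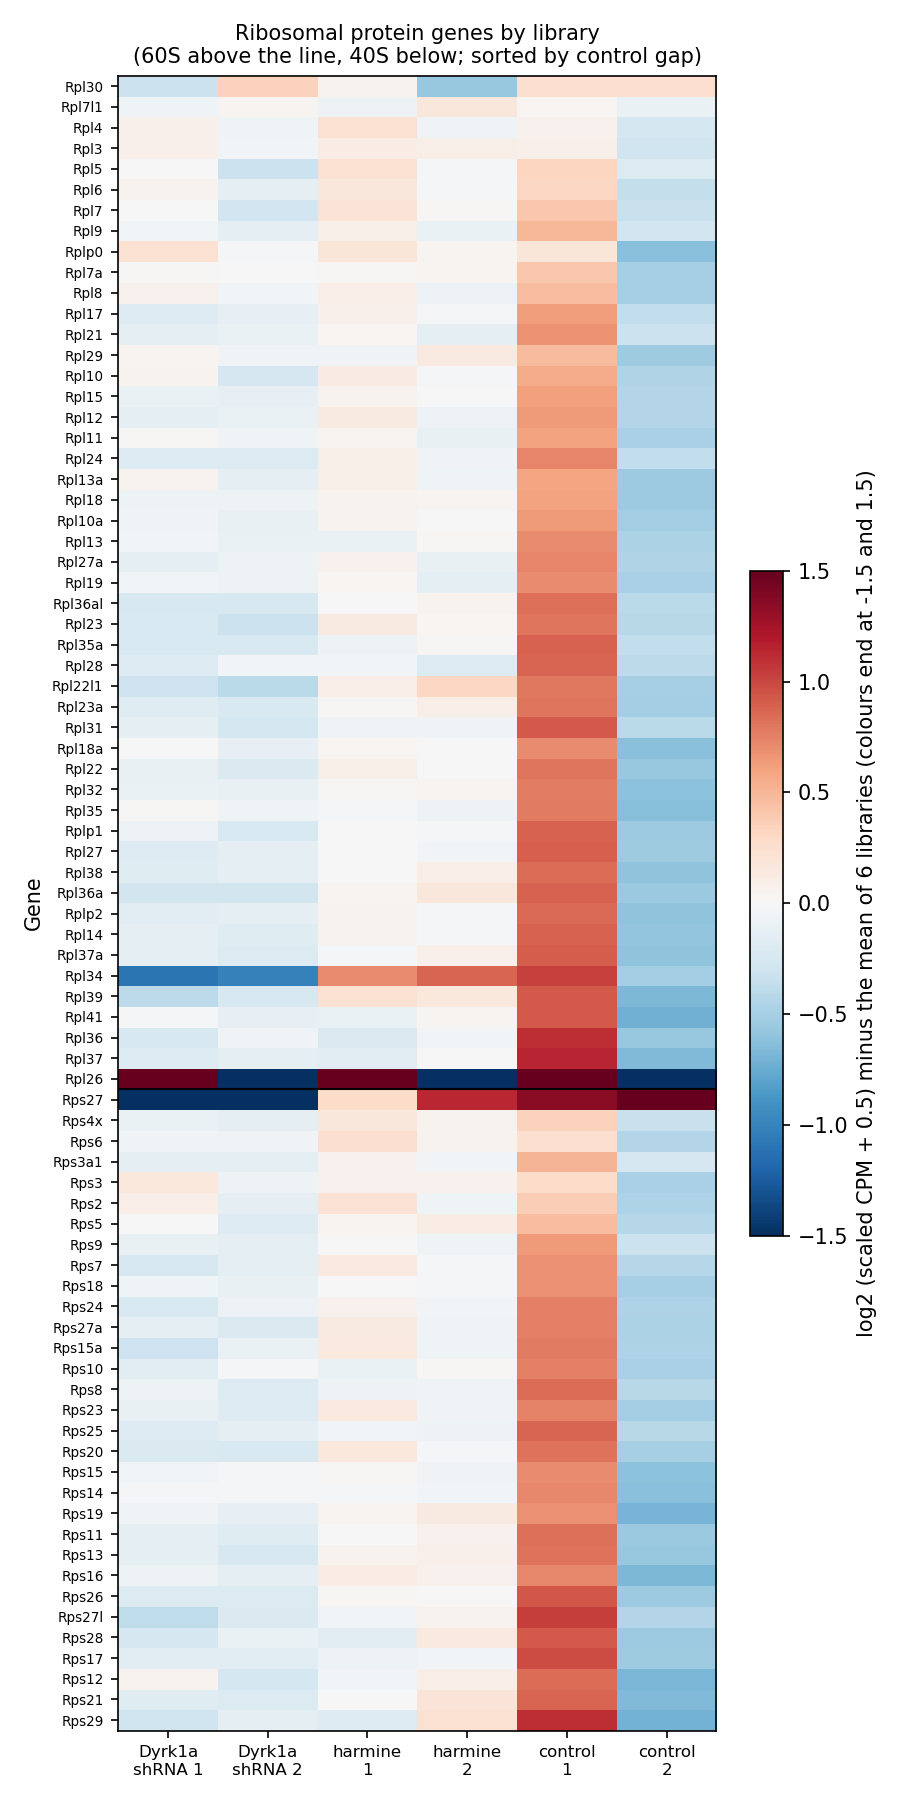
Level of the 80 tested members (rows, 60S above the line and 40S below, each sorted by the control gap) in the 6 libraries (columns), as log2 (scaled CPM + 0.5) minus the mean of the row. Control 1 is higher than control 2 in 78 of 80 rows, and Rps27 and Rpl30 are the 2 exceptions.

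The widest gaps were those of Rpl26, Rps29, Rpl37 and Rpl36. Rps29, a zinc-binding 40S protein, was measured at 611 and 681 CPM with Dyrk1a shRNA, 659.9 and 879.8 with harmine, and 1624 and 462 in control 1 and 2 (log2 gap 1.81). Rpl37, a zinc-binding 60S protein, was at 426 and 447 CPM with Dyrk1a shRNA, 441 and 489 with harmine, and 1085 and 311 in control 1 and 2 (log2 gap 1.80). Rpl36, a 60S protein, was at 251 and 287 CPM with Dyrk1a shRNA, 256 and 289 with harmine, and 641 and 200.1 in control 1 and 2 (log2 gap 1.68). In these 3 genes the treated libraries lay inside the control range. Rpl37 shares a near-identical stretch with the table row Gm13826, so its counts are uncertain. The ratio of Rpl26 rested on 21 counts in control 1 and 0 in control 2, and is given with its copy below.

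The narrowest gaps were those of Rps27 and Rpl30, which are given with their copies below, and of Rpl7l1 and Rpl4. Rpl4, a 60S protein that lines the peptide exit tunnel, was at 4148 and 3789 CPM with Dyrk1a shRNA, 4644 and 3824 with harmine, and 4126 and 3299.6 in control 1 and 2 (log2 gap 0.32). Rpl7l1, a paralog of Rpl7, was at 95.02 and 102 CPM with Dyrk1a shRNA, 94.2 and 111 with harmine, and 101 and 92.9 in control 1 and 2 (log2 gap 0.12). In both genes the treated libraries overlapped the control range. Rpl3, which reaches towards the peptidyl transferase centre, was at 5402 and 4992 CPM with Dyrk1a shRNA, 5538 and 5459.7 with harmine, and 5409 and 4188 in control 1 and 2 (log2 gap 0.37), and was the 1 member whose harmine libraries both lay above both controls.

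Across the 80 members the gap had a Spearman correlation of -0.53 with transcript length, and across 10528 genes with an annotated transcript -0.41. Between the harmine replicates the correlation of their log2 ratio with length was 0.58 across the members and -0.15 across all genes, and between the Dyrk1a shRNA replicates it was 0.19 and -0.16. These are descriptions across genes that share the same libraries. The median transcript had 780 bases for 60S and 751 bases for 40S genes, against 2821.5 for all genes tested. Up to 700 bases the median gap was 1.40 for 34 members, against 1.18 for all 276 genes, of which 257 were higher in control 1. Above 700 and up to 1500 bases it was 1.09 for 38 members, against 0.50 for 1572 genes. Above 1500 and up to 3000 bases it was 0.65 for 6 members, against 0.03 for 3860 genes. For longer transcripts it was 1.28 for 2 members, against -0.18 for 4820 genes. These members are Rps15a and Rps20, placed there by the transcripts annotated for them. The class of short transcripts as a whole thus showed a wide gap. After trends with length and GC content were removed from each library, the median gap of the members was 0.42, with 78 of 80 still higher in control 1. The gap was then above 2-fold in only 5 of 80 members, against 4.16% of all genes. All 4 treated libraries then lay between the controls in 47 members, against 13.6% of all genes.

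**Figure D3:**
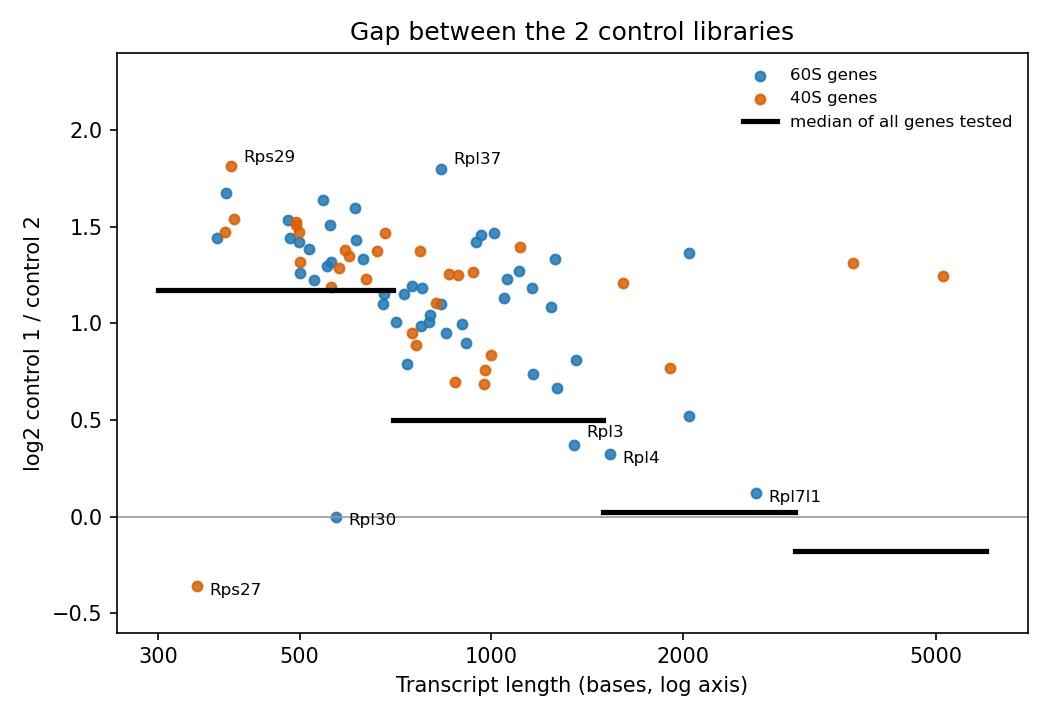
Log2 ratio of control 1 to control 2 against transcript length (bases, log axis) for 79 tested members, 60S in blue and 40S in orange, without Rpl26. Black bars mark the median of all genes tested in 4 length classes (1.18, 0.50, 0.03 and -0.18).

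Other gene groups in the same libraries differed in this gap. The median log2 gap was 0.61 over 76 mitochondrial ribosomal protein genes (68 higher in control 1) and 1.07 over 76 nuclear-encoded subunits of oxidative phosphorylation (72 higher). Over 20 translation factors and other genes listed for an oligopyrimidine start it was 0.36 (17 higher). Eef1a1, the elongation factor that delivers aminoacyl-tRNA, was at 34367 and 30080.0 CPM with Dyrk1a shRNA, 31937 and 30486 with harmine, and 24074 and 23724 in control 1 and 2 (log2 gap 0.02). Eef2, the translocase, was at 10733 and 9481 CPM with Dyrk1a shRNA, 8432 and 8343 with harmine, and 5559 and 6699.6 in control 1 and 2 (log2 gap -0.27). In both factors all 4 treated libraries lay above both controls, as in 8.47% of all genes. Neither factor is named by the rule for genes with values given below. In 7 of the 20 listed genes, among them Ppia and Eef1b2 (log2 gap 1.24 and 0.79), all 4 treated libraries lay between the controls. Over 40 genes of ribosome synthesis the median gap was 0.15, and over 15 tested regulators, among them Mtor, Larp1 and Myc, it was -0.26.

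The members with the highest level per length came from both subunits. In scaled CPM per kilobase of transcript (mean ± SD of the 6 libraries), Rps12 reached 8713 ± 3281, Rpl23a 5906 ± 2080, Rpl41 5754 ± 2349, Rplp0 5593 ± 1064, Rplp1 5336 ± 2048 and Rps18 4984 ± 1472. Neighbours in this order differed by less than the larger of their SDs. Rps12 was at 4220.1 and 3408 CPM with Dyrk1a shRNA, 3966 and 4371 with harmine, and 7321 and 2541 in control 1 and 2. Rps18 was at 2584 and 2497 CPM with Dyrk1a shRNA, 2720.2 and 2663 with harmine, and 4366 and 1915 in control 1 and 2. In both 40S genes the treated libraries lay between the controls. Rps6, added after its values were seen, was at 2818 and 2811 CPM with Dyrk1a shRNA, 3459 and 3015 with harmine, and 3482 and 2148 in control 1 and 2.

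The stalk of the 60S subunit, built of P0, P1 and P2, recruits the translation GTPases. Rplp0 was at 8743 and 7371 CPM with Dyrk1a shRNA, 8424 and 7702 with harmine, and 8490.1 and 4843 in control 1 and 2. Rplp1 was at 2388 and 2159 CPM with Dyrk1a shRNA, 2530.0 and 2500.0 with harmine, and 4661 and 1737 in control 1 and 2. Rplp2 was at 1367 and 1389 CPM with Dyrk1a shRNA, 1582 and 1493 with harmine, and 2749.9 and 1001 in control 1 and 2. The gap of Rplp0 (0.81), which has the longest transcript of the 3, was narrower than those of Rplp1 (1.42) and Rplp2 (1.46). Rplp2 shares a near-identical stretch of 447 bases with the table row Wdr89, so its counts are uncertain.

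The 3 ribosomal genes given here from outside the symbol pattern were also higher in control 1. Rpsa was at 7251 and 5878 CPM with Dyrk1a shRNA, 6929 and 6417 with harmine, and 7245 and 4369.9 in control 1 and 2. Gnb2l1 (Rack1), a 40S scaffold, was at 3817 and 3582 CPM with Dyrk1a shRNA, 3911 and 3859 with harmine, and 4649 and 2760.2 in control 1 and 2. In Rpsa and Gnb2l1 the log2 gap was 0.73 and 0.75. Fau, a fusion of a ubiquitin-like protein with a 40S protein, was at 1989 and 2104 CPM with Dyrk1a shRNA, 2147 and 2038 with harmine, and 3394 and 1496 in control 1 and 2. Its log2 gap was wider, 1.18.

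Paralogs and their partners are given side by side, with no comparison of levels between genes. Rpl22l1 was at 343 and 322 CPM with Dyrk1a shRNA, 458 and 530.2 with harmine, and 739 and 300.5 in control 1 and 2. Rpl22, which mouse alpha-beta T cells need for their development, was at 1055 and 977 CPM with Dyrk1a shRNA, 1205 and 1135 with harmine, and 1977 and 767 in control 1 and 2. In this pair control 1 was the highest library and control 2 the lowest. Rpl36al was at 259.8 and 259 CPM with Dyrk1a shRNA, 306 and 317 with harmine, and 544 and 232 in control 1 and 2. For its partner Rpl36a the values were 509 and 510.3 CPM with Dyrk1a shRNA, 631 and 693 with harmine, and 1141 and 419 in control 1 and 2. In all 4 genes both Dyrk1a shRNA libraries lay below both harmine libraries, as in 49 of the 80 members (61.3%) and 20.8% of all genes. Rpl7, the partner of Rpl7l1, was at 4086 and 3337 CPM with Dyrk1a shRNA, 4673 and 4117 with harmine, and 5394 and 3236 in control 1 and 2. Rpl10, whose paralog Rpl10l is given next, was at 2708 and 2182 CPM with Dyrk1a shRNA, 2828 and 2575 with harmine, and 3829 and 1901 in control 1 and 2. Paralogs below the filter were at or near 0, with Rpl10l at 0 counts in every library, which allows up to 3 counts in each, Rpl3l, known from heart and skeletal muscle, at 1 count in Dyrk1a shRNA 1, and Rpl39l and Rps4y2 (Rps4l) at 0 to 7 counts.

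The rows of several members are uncertain, because the table holds another row for a near-identical copy. GENCODE M21 (GRCm38) holds 625 copies with at least 95% identity over at least 150 bases, for 78 of the 84 members. Of these copies 17, of 15 members, have a row in the table, and 12, of 11 members, align over at least 80% of their length. In 4 members (Rps27, Rpl34, Rpl30 and Rpl26) the copy held most of the summed counts in at least 1 library, and Rps15a held 64.8 to 69.9% of its sum with Rps15a-ps4 and Rps15a-ps6. The copies named here were chosen after their values were seen. Rps27 (ENSMUSG00000090733.6, chr3:90212667-90213651, minus strand), a zinc-binding 40S protein, is identical to Gm9846 (chr9:114982366-114982739, minus strand) over 341 aligned bases and over all 252 coding bases. Coding bases 1 to 120, the same in both, show that reads from this stretch have no base by which to assign them.
Rps27 and Gm9846: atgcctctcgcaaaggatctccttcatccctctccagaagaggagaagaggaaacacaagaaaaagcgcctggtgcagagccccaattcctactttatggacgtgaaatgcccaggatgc
Rpl34, a 60S protein (chr3:130726831-130730398, minus strand), and the processed pseudogene Rpl34-ps1 (chr6:71124610-71124963, plus strand) differ at 2 of 351 coding bases. In coding bases 13 to 132 the 1 differing base is in capitals.
Rpl34: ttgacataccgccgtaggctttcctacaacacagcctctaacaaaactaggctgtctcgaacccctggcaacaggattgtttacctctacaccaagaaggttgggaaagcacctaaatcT
Rpl34-ps1: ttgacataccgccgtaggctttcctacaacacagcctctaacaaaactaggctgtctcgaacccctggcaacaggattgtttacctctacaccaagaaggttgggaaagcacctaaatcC
Rpl30, a 60S protein (chr15:34440505-34443640, minus strand), and Gm12191 (chr11:49678710-49679057, minus strand) differ at 1 of 345 coding bases, in capitals in coding bases 1 to 120.
Rpl30: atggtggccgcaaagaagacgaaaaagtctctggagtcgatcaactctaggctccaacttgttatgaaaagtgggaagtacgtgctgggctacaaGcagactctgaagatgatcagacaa
Gm12191: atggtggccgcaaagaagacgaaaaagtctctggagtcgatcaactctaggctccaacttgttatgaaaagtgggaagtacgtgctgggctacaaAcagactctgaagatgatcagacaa

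Rps27 was the 1 member that passed the test. It was measured at 21.5 and 11.5 CPM with Dyrk1a shRNA, 92.1 and 168 with harmine, and 196 and 252 in control 1 and 2. The 3 groups did not overlap. The log2 fold change was -3.79 ± 0.35 (SE) with Dyrk1a shRNA against control (edgeR quasi-likelihood test, adjusted p = 0.00196). It was -3.01 ± 0.34 with Dyrk1a shRNA against harmine (edgeR adjusted p = 0.0175) and -0.78 ± 0.29 with harmine against control (edgeR adjusted p = 0.903). The identical row held most of the reads, since Gm9846 was at 1261 and 1421 CPM with Dyrk1a shRNA, 1386 and 1419.5 with harmine, and 2546 and 685 in control 1 and 2. As a share of both rows, Rps27 took 1.67% and 0.802% with Dyrk1a shRNA, 6.23% and 10.6% with harmine, and 7.14% and 26.9% in control 1 and 2.

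With both rows added, Rps27 did not pass the test. The sum was at 1282 and 1433 CPM with Dyrk1a shRNA, 1478 and 1587 with harmine, and 2742 and 937 in control 1 and 2, so that the treated libraries lay between the controls as in most members. Its log2 fold change was -0.44 ± 0.39 (SE) with Dyrk1a shRNA against control (edgeR adjusted p = 0.786) and -0.17 ± 0.39 with Dyrk1a shRNA against harmine (edgeR adjusted p = 0.975). For the Rps27 row alone, the call against harmine was also lost without Dyrk1a shRNA replicate 1 (edgeR adjusted p = 0.0524), without Dyrk1a shRNA replicate 2 (0.134) and without control replicate 2 (0.06). With the length and GC trends removed the log2 fold changes were -3.44 against control and -2.80 against harmine and neither passed the test (edgeR adjusted p = 0.875 and 0.999).

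Rpl34 had the next largest fold change and the same kind of copy. It was measured at 194 and 207 CPM with Dyrk1a shRNA, 683 and 763 with harmine, and 852 and 294 in control 1 and 2. Both Dyrk1a shRNA libraries lay below every other library. The log2 fold change was -1.52 ± 0.38 (SE) with Dyrk1a shRNA against control (edgeR adjusted p = 0.612) and -1.85 ± 0.38 with Dyrk1a shRNA against harmine (edgeR adjusted p = 0.545). Rpl34-ps1 was at 1023 and 977 CPM with Dyrk1a shRNA, 539.8 and 716 with harmine, and 1247 and 563 in control 1 and 2. In this copy the Dyrk1a shRNA libraries lay above the harmine libraries. With both rows added, the sum was at 1218 and 1185 CPM with Dyrk1a shRNA, 1223 and 1479 with harmine, and 2099 and 857 in control 1 and 2, and the log2 fold change was -0.30 ± 0.34 against control and -0.17 ± 0.34 against harmine (edgeR adjusted p = 0.847 and 0.97). For the Rpl34 row alone the test depended on the setting, since Dyrk1a shRNA against harmine passed it under 7 alternatives (edgeR adjusted p = 4.58e-11 to 0.0435), among them without control replicate 1 (1.47e-06) and without control replicate 2 (7.64e-07). Against control it passed under 4, with no filter (edgeR adjusted p = 5.8e-07), without control replicate 2 (1.13e-06), and with the length and GC trends removed without (0.0379) and with (0.00918) a replicate block.

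**Figure D4:**
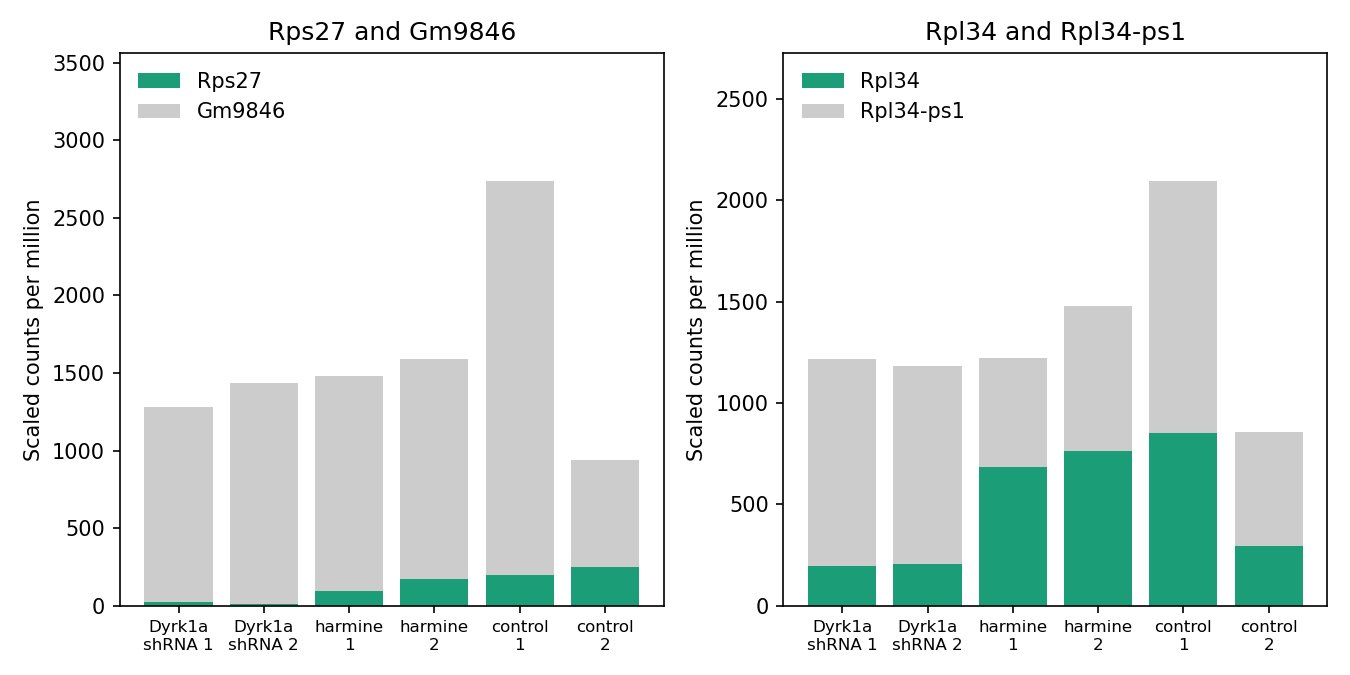
Scaled counts per 1e+06 of Rps27 with Gm9846 (left) and of Rpl34 with Rpl34-ps1 (right) in each library, stacked, with the ribosomal protein gene in green and its near-identical copy in grey. The stacks of all 4 treated libraries lie between control 1 (2742 and 2099) and control 2 (937 and 857).

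In Rpl26 and Rpl30 the copy held nearly all reads. Rpl26, a 60S protein near the exit of the tunnel, had 20 and 0 counts with Dyrk1a shRNA, 20 and 0 with harmine, and 21 and 0 in control 1 and 2. Its copy Gm15772 (chr5:3236431-3236868, plus strand) had 5639 and 6806 counts with Dyrk1a shRNA, 7700 and 8964 with harmine, and 6754 and 1993 in control 1 and 2. The Rpl26 row thus held reads in the libraries numbered 1 alone. Set against the 3 counts that a count of 0 allows in control 2, control 1 was 4.40-fold higher in unscaled CPM. This ratio takes the 21 counts of control 1 as exact, although they were divided from the copy by estimate. The sum of both rows had a log2 gap of 1.34. Rpl30 was at 18.0 and 28.9 CPM with Dyrk1a shRNA, 23.5 and 15.1 with harmine, and 27.0 and 27.0 in control 1 and 2. For Gm12191 the values were 1188 and 1181 CPM with Dyrk1a shRNA, 1641 and 1652 with harmine, and 2272 and 863 in control 1 and 2. The log2 gap of that sum was 1.37, against -0.0011 for Rpl30 alone. With the copies added, all 80 members were higher in control 1 than in control 2, with log2 gaps of 0.12 to 1.81.

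With Dyrk1a shRNA against control, 1 of 80 members was called lower (Rps27). It was the only gene called lower among all 10607 tested, so the share of all genes, 0.00943%, is Rps27 itself. Among the members 0 were called higher, against 0.00943% of all genes (edgeR, 0 at an unadjusted p under 0.05 against 3.1% of all genes, and 0 by the DESeq2 Wald test). At an unadjusted p under 0.05, 3 members were lower (Rps27, Rpl34 and Rps27l), 3.75% against 4.59% of all genes. Both Dyrk1a shRNA libraries lay below both controls in 2 members (Rps27 and Rpl34), 2.5% against 16.9% of all genes, and above both in 0, against 18.5%. The median log2 fold change was -0.38 over the members, -0.37 over 60S and -0.43 over 40S genes, against -0.01 over all genes. It was below 0 in 75 of 80 members (93.8%), against 51.6% of all genes. The 5 above 0 were Rpl3, Rpl4, Rpl7l1, Rplp0 and Rps3, with 0.02 to 0.27. Rps27l, a paralog of Rps27, was at 93.9 and 106 CPM with Dyrk1a shRNA, 119 and 128 with harmine, and 252 and 90.3 in control 1 and 2, with a fold change on the log2 scale of -0.79 ± 0.35 (SE, edgeR adjusted p = 0.627). Without control replicate 1 that value was 0.14, and without control replicate 2 it was -1.33 and passed the test (edgeR adjusted p = 0.000361). For Rpl22l1, whose values are above, the change was -0.65 ± 0.32 (SE, edgeR adjusted p = 0.667).

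With harmine against control, 0 of 80 members were called in either direction (edgeR, and 0 by the DESeq2 Wald test), where 0% of all genes were called lower and 0.00943% higher. At an unadjusted p under 0.05, 1 member (Rps27) was lower, 1.25% against 3.07% of all genes, and 0 were higher, against 2.22%. Both harmine libraries lay below both controls in 2 members (Rps27 and Rpl30), 2.5% against 15.9% of all genes, and above both in 1 (Rpl3), 1.25% against 16.4%. The median log2 fold change was -0.23 over the members and over each subunit, against -0.02 over all genes, and it was below 0 in 67 of 80 members (83.8%), against 52.5% of all genes. Rpl28, a 60S protein, was at 792 and 880.2 CPM with Dyrk1a shRNA, 886 and 784 with harmine, and 1669.7 and 691 in control 1 and 2. Its harmine libraries lay inside the control range, with a log2 change of -0.50 ± 0.33 (SE, edgeR adjusted p = 0.935). The changes of Rpl36 and Rpl30 were -0.63 ± 0.43 and -0.49 ± 0.31 (SE, edgeR adjusted p = 0.938 and 0.928), and that of Rpl30 was 0.06 with its copy added.

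Both comparisons share the control libraries, and their direction depended on which control was kept. Without control replicate 1, the median log2 fold change of the members was 0.36 with Dyrk1a shRNA and 0.51 with harmine, and 77 and 78 of 80 members were above 0. Without control replicate 2 it was -0.87 with Dyrk1a shRNA and -0.73 with harmine. In that fit 64 members with Dyrk1a shRNA and 57 with harmine were called lower (edgeR, with the lone control assumed to vary like the other groups), where 3.56% and 2.32% of all genes were. With the length and GC trends removed and all libraries kept, the medians were -0.0059 with Dyrk1a shRNA and 0.03 with harmine, and 42 and 33 of 80 members were below 0.

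**Figure D5:**
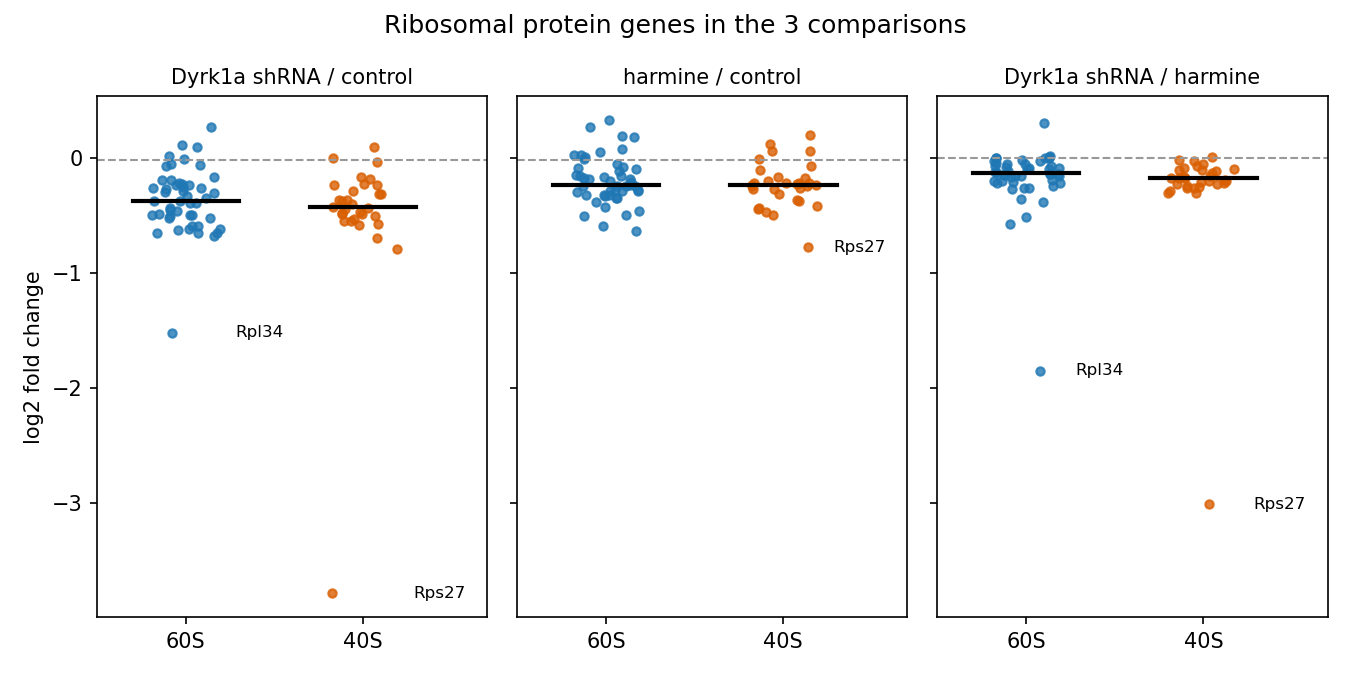
Log2 fold changes of 79 tested members (points, without Rpl26) in the 3 comparisons, 60S in blue and 40S in orange, with the median of each subunit as a black bar and the median of all genes as a dashed line. The subunit medians are -0.37 and -0.43 for Dyrk1a shRNA against control, -0.23 and -0.23 for harmine against control, and -0.12 and -0.17 for Dyrk1a shRNA against harmine, and Rps27 and Rpl34 lie lowest for Dyrk1a shRNA.

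Dyrk1a shRNA against harmine takes no level from the controls, which enter through the scaling and the shared estimate of spread. In this comparison 1 of 80 members was called lower (Rps27). Here too it was the only gene called lower among all 10607 tested, so the share of all genes, 0.00943%, is Rps27 itself. Among the members 0 were called higher (edgeR, 0 at an unadjusted p under 0.05 against 2.91% of all genes, and 0 by the DESeq2 Wald test). At an unadjusted p under 0.05, 2 members were lower (Rps27 and Rpl34), 2.5% against 2.82% of all genes. Both Dyrk1a shRNA libraries lay below both harmine libraries in 49 members (61.3%), 26 of the 60S and 23 of the 40S subunit, against 20.8% of all genes, and above both in 0, against 20.2%. The median log2 fold change was -0.14 over the members, -0.12 over 60S and -0.17 over 40S genes, against -0.0011 over all genes. It was below 0 in 73 of 80 members (91.2%), against 50.1% of all genes. All 7 tested B cell markers were above 0 in the same comparison (median 0.49), and their part in the result was not tested.

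Apart from Rps27 and Rpl34, no member passed an unadjusted p of 0.05 against harmine. Rpl39, a small 60S protein of the exit tunnel, was at 676 and 748 CPM with Dyrk1a shRNA, against 1037 and 986 with harmine (log2 fold change -0.51 ± 0.39 SE, edgeR adjusted p = 0.896). The change of Rpl22l1 was -0.57 ± 0.32 (SE, edgeR adjusted p = 0.866). Rps4x, the expressed partner of Rps4y2, was at 3481 and 3399.7 CPM with Dyrk1a shRNA, against 4174 and 3850.1 with harmine. In these 3 genes the groups did not overlap, as in 49 of 80 members (61.3%) and 20.8% of all genes. None of the 3 passed the test.

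The shift against harmine was smaller after length and GC trends were removed. The median log2 fold change was then -0.05, and 26 members (14 of the 60S and 12 of the 40S subunit) had both Dyrk1a shRNA libraries below both harmine libraries, against 17.1% of all genes. Across genes, the fold change had a Spearman correlation with GC content of 0.49 over 80 members and 0.42 over 10528 genes, as a description. With copies added 51 members did not overlap (20.7% of all genes), and under scaling by library size alone 48 did not (19% of all genes).

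Related gene groups are given by their medians, which were not tested. For Dyrk1a shRNA against harmine, mitochondrial ribosomal proteins had a median log2 fold change of -0.11 (57 of 76 below 0) and oxidative phosphorylation subunits -0.14 (64 of 76 below 0). The translation factors had -0.09 (14 of 20 below 0) and ribosome synthesis genes -0.06 (25 of 40 below 0). Both comparisons with control rest on the same 2 control libraries, whose gap in these groups is given above. At an unadjusted p under 0.05 (edgeR), 4.59% of all genes were lower and 3.1% higher with Dyrk1a shRNA against control. In that comparison the median was -0.34 for mitochondrial ribosomal proteins, with 14 of 76 lower and 0 higher at this threshold. It was -0.44 for oxidative phosphorylation subunits, with 9 of 76 lower and 1 higher, -0.0023 for the translation factors, with 0 lower and 2 higher, and -0.08 for ribosome synthesis, with 2 lower and 0 higher. With harmine against control these 4 medians were -0.24, -0.27, 0.11 and -0.05. At an unadjusted p under 0.05, 2, 1, 0 and 1 genes were lower, against 3.07% of all genes. At the same threshold 0, 0, 1 and 1 were higher, against 2.22%. No gene of these 4 groups was called after adjustment in any of the 3 comparisons.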

How the data were processed

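Per the labels and the study's methods, polyadenylated RNA was primed with oligo-dT and made into Nextera libraries, which mark no strand. Alignment by the authors was to mm10 with TopHat (version 2.0.13 of TopHat2 in the submitters' notes) and they deposited RSEM expected counts per gene for the 6 libraries, without normalization. The versions of RSEM and of the transcript annotation are not given in the sources used here. RSEM divides reads that match several loci by estimate, so near-identical rows can trade counts.

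Expected counts were rounded before any fit. All genes with enough counts (edgeR's filterByExpr at 10 counts) were then tested by the quasi-likelihood F test of edgeR 4.0.16 under R 4.3.3, with TMM scaling, robust dispersions and 3 group means over the 6 libraries, two-sided, at a Benjamini-Hochberg adjusted p of 0.05. Gaps between libraries are differences of log2 CPM with a prior count of 2. DESeq2 1.42.0 was an alternative tool. The procedure was tested on simulated data. Transcript length and GC content came from 1 transcript per gene of GENCODE M21 (GRCm38, the assembly of mm10), which matched 98.4% of the rows and all 84 members, and trends with them were removed by natural splines with 4 degrees of freedom. Libraries held 1096345 to 3747648 counts.

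The members, the gene lists and the rule for named genes were chosen with earlier results of these data known. A fold change with its test is given for members called in any comparison and for the 4 with the smallest unadjusted p in each. Values are given for the 6 highest per length, the 4 widest and 4 narrowest control gaps, members with all treated libraries outside the controls, the stalk, Rpsa, Rack1 and Fau, paralog pairs, Dyrk1a and members below the filter. Alternatives were other scalings, filters and tools, the compared groups alone, a replicate block, length and GC trends removed, thinning to the smallest library and leaving out each library. The addition of near-identical copies was chosen after seeing the data. Some items the rule names, and 1 alternative choice of genes for the share and the subunit ratio, are not reported here.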

Additional observations from a re-analysis of the deposited data

How the results depend on the processing

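No fold change given with a test reversed its sign under another scaling (library size alone, DESeq2 size factors, TMM without ribosomal protein rows), the DESeq2 Wald test or a minimum count of 50. Members called lower with Dyrk1a shRNA against control were 2 with no filter and 0 with copies added, against 1. Against harmine they were 2 under library size alone, with no filter and with the compared groups alone, and 0 with copies added, against 1. The numbers in the labels were not shown to pair the samples (correlations of same-numbered deviations 0.24, 0.12 and 0.02, with 2 pairs a comparison). With a replicate block, 0 members were called lower against harmine (Rps27 at edgeR adjusted p = 0.0623), and 1 (Rps27) against control. The 60S median minus the 40S median for Dyrk1a shRNA against control was 0.058, against 0.083 with the replicate block, -0.029 with length and GC trends removed, 0.0060 with both, and 0.090 after thinning. For harmine against control it was -0.0035, against 0.023 with no filter, -0.024 with length and GC trends removed, -0.018 with the replicate block as well, 0.036 after thinning and 0.020 with copies added. For Dyrk1a shRNA against harmine it was 0.050, against 0.0025 with the trends removed, 0.0050 with the replicate block as well, and 0.086 after thinning, and the median was -0.046 with the trends removed and -0.048 with the replicate block as well. The gap became 0.42 with the trends removed. Rpl22l1 against control turned to 0.079 with the trends removed, also with the replicate block, and Rpl30 with harmine to 0.062 with copies added. The share of counts in Dyrk1a shRNA 1 and 2 was 14.19 and 14.13% over canonical genes, 14.40 and 14.36% with pseudogene rows, and 14.86 and 14.84% with copies, and in harmine 1 and 2 it was 16.20 and 16.08% with copies. With copies the subunit ratio was 1.621 and 1.576 in Dyrk1a shRNA 1 and 2 and 1.547 in harmine 2. Leaving out each library in turn gave, for Dyrk1a shRNA against control, a median of -0.87 to 0.36, 1 to 64 members called lower and 0 higher, a 60S minus 40S difference of -0.011 to 0.10, and log2 fold changes of -4.27 to -3.38 for Rps27, -2.08 to -0.56 for Rpl34, -1.15 to 0.14 for Rpl22l1 and -1.33 to 0.14 for Rps27l. For harmine against control it gave a median of -0.73 to 0.51, 0 to 57 called lower and 0 to 1 higher (Rpl34, without control replicate 1), a difference of -0.037 to 0.024, and -1.28 to -0.41 for Rps27, -0.999 to 0.265 for Rpl28, -0.84 to -0.20 for Rpl30 and -1.23 to 0.44 for Rpl36. For Dyrk1a shRNA against harmine it gave a median of -0.16 to -0.12, 0 to 2 called lower, a difference of 0.021 to 0.060, and -3.50 to -2.51 for Rps27, -1.93 to -1.77 for Rpl34, -0.67 to -0.46 for Rpl22l1 and -0.58 to -0.43 for Rpl39. The extremes against control were reached without control replicate 1 or 2 in the medians and counts. With every library thinned to the 1096345 counts of control 2, the medians against control were -0.37 with Dyrk1a shRNA and -0.22 with harmine, and 1 and 0 members were called lower.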
